A study of Mus musculus with 6 samples.

Results

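Glycosyltransferases are the Golgi enzymes that build the sugar chains of the cell surface, and 81 of their genes were compared between Eomes-positive and Eomes-negative γδ T cells of the mouse spleen. They are the genes on the array whose names begin with St3gal, St6gal (which takes in St6galnac), St8sia, Fut, Gcnt, Galnt, B3gnt, B4galt, B4galnt or Mgat. Every gene with such a name was taken whatever its signal, but the names were chosen with earlier results of these data known. They make up 81 of the 30194 gene names on the array and have 112 of its 39429 probes, and the probe with the highest mean signal stood for each gene. Some carry older names in the scanner files: B4gat1 is listed there as B3gnt1, and Galnt16, Galnt15 and Galnt18 are listed as Galntl1, Galntl2 and Galntl4. Fut4-ps1 is a pseudogene entry. Both groups came from the same Eomes-IRES-GFP reporter mice (allele Eomestm1.1Twa, C57BL6 background), where GFP, a green fluorescent protein, reports expression of Eomes, a transcription factor of the T-box family. Splenocytes depleted of B220+, CD4+ and CD8β+ cells were sorted as CD3+ TCRγδ+ TCRβ- cells that were GFP+ (Eomes-positive) or GFP- (Eomes-negative). Each of 3 independent sorts pooled the spleens of 4 to 6 mice, aged 9, 9.5 and 7.5 weeks in sorts 1, 2 and 3, and gave 1 array of each group. Mice without the reporter were not analysed here.

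Sialyltransferases cap chains with sialic acid, in α2,3 linkage (St3gal), in α2,6 linkage (St6gal and St6galnac) or as sialic acid linked to sialic acid (St8sia). Fucosyltransferases (Fut) add fucose, Galnt enzymes start mucin-type O-glycans on serine and threonine, most Gcnt enzymes branch them, Mgat enzymes branch N-glycans, and B3gnt, B4galt and B4galnt enzymes lengthen or cap chains. In T cells these sugars form the selectin ligands used for homing, the gangliosides of the plasma membrane, and ligands of galectins and of sialic acid-binding lectins. An mRNA level does not measure the glycan itself.

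Of the 81 genes, 48 were tested, and 5 of the 48 passed the test between the groups with group as the only term. That is 10.4%, against 2.77% of the 16361 genes tested. B4galt5 and St3gal2 were higher in Eomes-positive cells, and St8sia1, Fut7 and B4galnt4 were lower. B4galnt4 entered the test only through the Eomes-negative arrays, where it is high, so its call is no support for these counts. All 5 also passed in a fit that took the sort as a block and so compared the arrays within each sort. Another 9 genes, given below, passed only in that fit. It called 10.4% of the 48 higher and 18.8% lower, against 3.67% and 4.33% of all genes tested. The 5 calls rest on 60-base probes, and the first 30 bases of each are shown because they identify what was hybridised. The scanner files place them, in the mm9 build, on chromosome 2 from 167124056 to 167124115 for B4galt5, chromosome 8 from 113495359 to 113495418 for St3gal2, chromosome 6 from 142770079 to 142770138 for St8sia1, chromosome 2 from 25281802 to 25281861 for Fut7, and chromosome 7 from 148257556 to 148257615 for B4galnt4. An exon annotation of that build was not used here.
B4galt5: gttttaaaaggtgccaggggtacatttttg
St3gal2: gagtgttaagaggtttgggatgaggcaaca
St8sia1: cagtttctctacctcccttccttggagaat
Fut7: gggttgtggaaggacagtgcagatgattct
B4galnt4: tttggcctctttgggatctacaaatcagac

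Promoter windows, the 250 bases before an annotated start in RefSeq's GRCm38.p6 annotation, were at hand for 58 of the 81 genes (81 windows). They are shown for called genes because the cells were sorted by a T-box factor. Both strands were searched for the T-box core GTGTGA, which reads TCACAC on the opposite strand. They were also searched for the GC box core GGGCGG, which reads CCGCCC on the opposite strand. The 2 motifs can share a base at their ends, but no window shown held both. Capitals mark the GC box cores; each sequence runs 5′ to 3′ on the gene's own strand.
B4galt5 (chr2:167349179-167349428, minus strand): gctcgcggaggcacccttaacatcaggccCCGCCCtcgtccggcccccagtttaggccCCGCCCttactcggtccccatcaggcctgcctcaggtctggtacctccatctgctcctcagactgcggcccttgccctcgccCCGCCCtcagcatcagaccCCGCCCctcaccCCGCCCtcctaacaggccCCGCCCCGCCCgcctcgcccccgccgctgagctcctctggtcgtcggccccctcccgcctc
St8sia1 (chr6:142964453-142964702, minus strand): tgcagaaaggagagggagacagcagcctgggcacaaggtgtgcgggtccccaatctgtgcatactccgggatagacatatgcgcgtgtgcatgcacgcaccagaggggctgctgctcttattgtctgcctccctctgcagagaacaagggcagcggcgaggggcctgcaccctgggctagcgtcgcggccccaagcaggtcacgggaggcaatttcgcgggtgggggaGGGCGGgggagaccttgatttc
Fut7 (chr2:25422992-25423241, plus strand): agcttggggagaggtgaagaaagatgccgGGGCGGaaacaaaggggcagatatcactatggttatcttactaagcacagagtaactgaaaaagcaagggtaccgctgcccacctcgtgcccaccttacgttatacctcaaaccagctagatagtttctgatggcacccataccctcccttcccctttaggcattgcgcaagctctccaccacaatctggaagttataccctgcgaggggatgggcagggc
B4galnt4 (chr7:141060728-141060977, plus strand): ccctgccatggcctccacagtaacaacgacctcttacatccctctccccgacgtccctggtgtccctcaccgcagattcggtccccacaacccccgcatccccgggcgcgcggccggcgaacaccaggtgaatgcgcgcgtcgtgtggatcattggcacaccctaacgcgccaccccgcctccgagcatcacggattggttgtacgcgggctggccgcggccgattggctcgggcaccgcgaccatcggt
No T-box core lay in these 4 windows or in the window of the other Fut7 start, which says only that these letters are not in the windows. The core was in 4039 of all 32851 windows (12.3%) and in 7 of the 81 glycosyltransferase windows (8.64%), among tested genes those of B3gnt2, Gcnt1, Mgat1 and St6galnac4. The B4galt5 window held 7 GC box cores, of which a neighbouring pair shared 1 base, those of St8sia1 and Fut7 held 1 each, and that of B4galnt4 held 0. A GC box core was in 32.7% of all windows and in 53.1% of the glycosyltransferase windows, whose median GC content was 59.6% against 52.4% over all windows.

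Each level is a log2 signal minus that of the array's 75th percentile, values on single arrays are in the order of sorts 1, 2 and 3, and a difference is Eomes-positive minus Eomes-negative. A level is not comparable between genes, because probes differ in brightness. Eomes itself was at 5.31, 4.96 and 4.48 on the Eomes-positive arrays, against 0.72, 0.88 and -1.14 on the Eomes-negative arrays, a 27.1-fold difference (log2 4.76, SE 0.59, limma adjusted p = 0.0178). Between 47.7% and 56.6% of probes per array were measured, that is, well above background on at least 50% of their spots. The RNA input was 4 ng in sort 3, with 75th percentiles of 534 and 549 raw intensity units, against 1581 to 1684 with the 9 ng of sorts 1 and 2. The summed level of the 4 CD3 chain genes on the array (Cd3d, Cd3e, Cd3g and Cd247) was 7.99 to 8.34 in Eomes-positive cells, against 8.05 to 8.41 in Eomes-negative cells. The summed level of 4 αβ T cell markers was 1.15 to 1.29 in Eomes-positive cells, against 2.66 to 3.20 in Eomes-negative cells. Among them Cd8b1, the CD8β chain gene, was lower (log2 -2.86, limma adjusted p = 0.0194), and Cd40lg was measured on no array. For 10 B cell markers the sums were 2.86 to 3.53 in Eomes-positive cells, against 3.89 to 4.19 in Eomes-negative cells, with Ighm measured on no array. For 6 NK cell markers, Eomes among them, they were 6.17 to 6.46 in Eomes-positive cells, against 2.93 to 4.01 in Eomes-negative cells, and 2 besides Eomes, Klrb1c and Klre1, were called higher. The part of these cell types in the differences below was not tested. Summed, the myeloid markers separated the sorts rather than the groups, though single markers varied. The myeloid markers are given below, beside the genes that were highest in sort 2. In bulk samples such as these, fewer cells of a type and less RNA per cell cannot be told apart.

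Transcripts of 48 of the 81 genes were measured on at least 3 of the 6 arrays and were tested, 42 of them measured on all 6. Another 29 were measured on no array, and 4 (B3gnt8, B4galt6, Galnt14 and Galnt18) on 1 or 2 arrays. Among the 48, 2 were called higher and 3 lower at an adjusted p under 0.05 (limma), 10.4% in either direction, against 2.77% of the 16361 genes tested. By direction the background was 1.20% higher and 1.56% lower. Same-numbered arrays deviated together, and in a fit that took the sort as a block 5 genes were higher and 9 lower. That is 10.4% of the 48 higher and 18.8% lower, against 3.67% and 4.33% of all genes tested. The 3 Eomes-positive arrays lay above all 3 Eomes-negative arrays for 10 genes and below them for another 10. That is 41.7% of the 48 in either direction, against 18.2% of all genes tested (8.53% above and 9.69% below). At an unadjusted p under 0.05 stood 22 of the 48 (45.8%) and 12.2% of all genes. The median difference was -0.09 over the 48 and -0.01 over all genes tested, and the median size of the difference regardless of sign was 0.51 over the 48 and 0.20 over all genes tested. Differences were positive for 21 genes and negative for 27. B4galnt4 met the 3-array minimum only through the Eomes-negative arrays, where it is high, so its call is no support for these counts. Among genes measured on all 6 arrays, fitted by themselves, 2 of the 42 were higher and 2 lower, against 167 and 165 of all 13747 genes. The glycosyltransferase genes were chosen with earlier results of these data known, so these shares are a description and not a test.

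**Figure D1:**
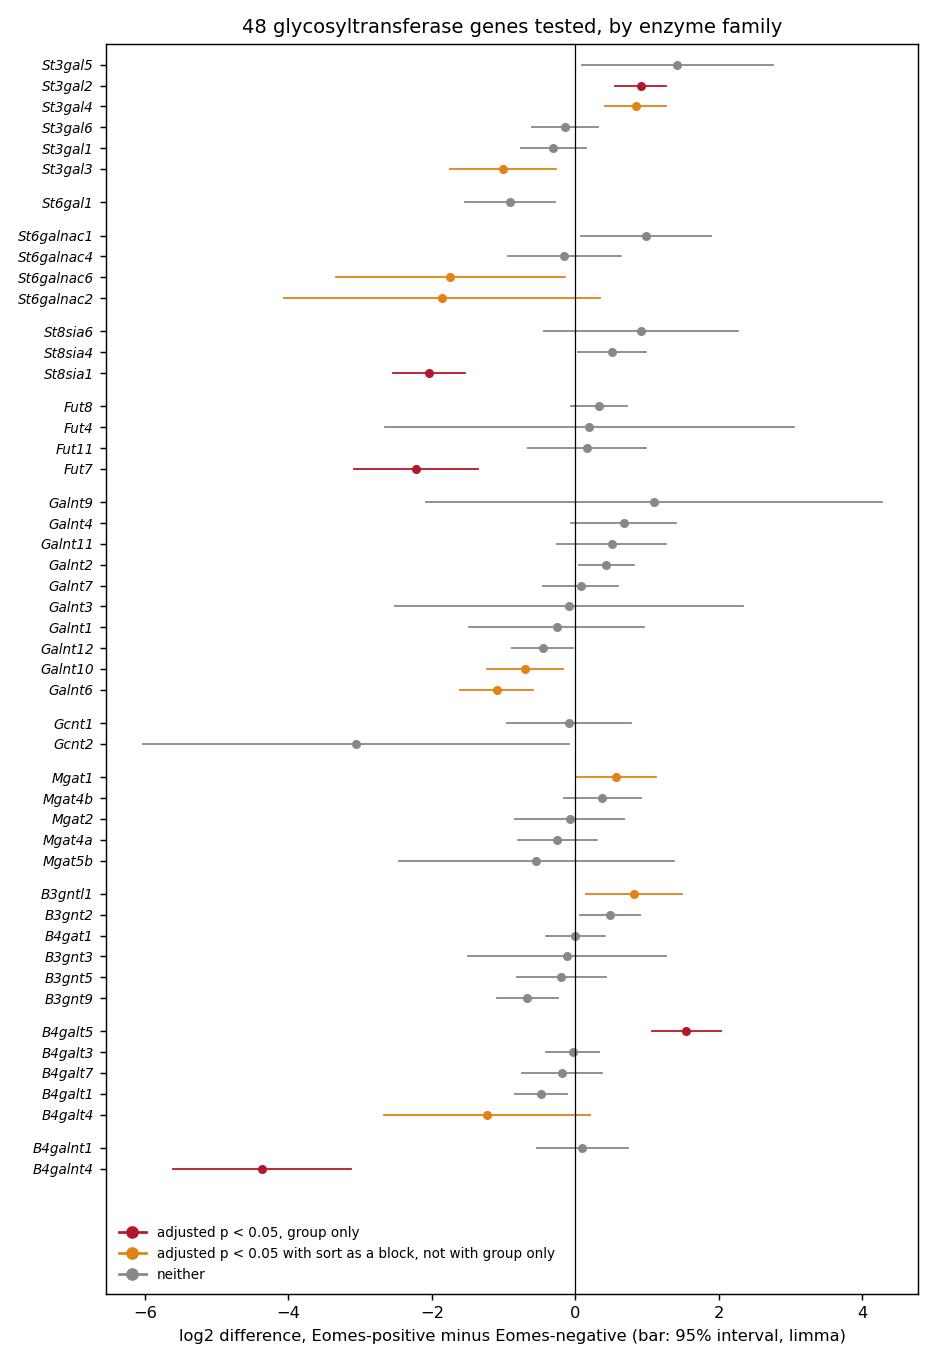
Log2 difference, Eomes-positive minus Eomes-negative, with its 95% interval from limma (horizontal axis), for the 48 tested glycosyltransferase genes grouped by enzyme family (vertical axis). Red marks the 5 genes past an adjusted p of 0.05, orange the 9 that passed with sort as a block but not with group as the only term; they lie on both sides of 0, from -4.37 for B4galnt4 to 1.55 for B4galt5.

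Called enzymes of ganglioside synthesis differed in both directions: B4galt5 and St3gal2 were higher in Eomes-positive cells and St8sia1 was lower. B4galt5, which turns glucosylceramide into lactosylceramide, the parent of the gangliosides, was at 4.32, 4.17 and 4.09 on the Eomes-positive arrays, against 2.82, 2.82 and 2.30 on the Eomes-negative arrays. All 3 Eomes-positive arrays were the higher ones, in every sort. The means were 4.20 ± 0.12 in Eomes-positive and 2.65 ± 0.30 in Eomes-negative cells (SD, n = 3 each), a 2.92-fold difference (log2 1.55, SE 0.20, limma adjusted p = 0.0193). Its other probe gave a difference of 1.44. With the mean of both probes the B4galt5 difference was 1.49 and did not pass (limma adjusted p = 0.0565). With no filter on dim probes the call also ended (limma adjusted p = 0.0587). Slide 1 carried 2 Eomes-negative arrays beside 1 Eomes-positive array and slide 3 carried 1 of each; the difference was 1.5 inside slide 1 and 1.79 inside slide 3. A fit with slide as a block gave 1.63 (limma adjusted p = 0.0239). Here and below, the Eomes-positive array of sort 2, alone on slide 2, does not enter the difference of that fit.

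St8sia1, the GD3 synthase, which adds the α2,8-linked sialic acid that opens the b-series gangliosides, ran the other way. St8sia1 was at -0.86, -0.74 and -1.13 on the Eomes-positive arrays, against 1.45, 0.90 and 1.04 on the Eomes-negative arrays. The groups did not overlap, and the Eomes-positive arrays were the lower ones in every sort. The means were -0.91 ± 0.20 in Eomes-positive and 1.13 ± 0.28 in Eomes-negative cells (SD, n = 3 each), 4.11-fold lower (log2 -2.04, SE 0.21, limma adjusted p = 0.0096). Within slides 1 and 3 the differences were -2.03 and -2.18, and with slide as a block -2.09 (limma adjusted p = 0.0342).

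St3gal2 adds terminal α2,3-linked sialic acid to gangliosides and to core 1 O-glycans. It was at 0.03, 0.16 and 0.00 on the Eomes-positive arrays, against -0.96, -0.91 and -0.68 on the Eomes-negative arrays. Its groups were clear of each other, with the Eomes-positive arrays higher. The difference was 1.89-fold (log2 0.91, SE 0.14, limma adjusted p = 0.0369), 0.96 within slide 1 and 0.69 within slide 3. With slide as a block it was 0.85 and no longer passed (limma adjusted p = 0.0882). A dimmer St3gal2 probe, measured on 2 arrays of each group, gave 0.20. With the mean of both probes the difference was 0.56 (limma adjusted p = 0.210). The St3gal2 call also ended with no filter on dim probes (limma adjusted p = 0.170).

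The other tested genes of the route did not pass the test. St3gal5, the GM3 synthase, which sits between lactosylceramide and St8sia1, was at 0.82, 1.18 and 0.35 on the Eomes-positive arrays, against -1.14, 0.53 and -1.30 on the Eomes-negative arrays. Sort 2 held the highest St3gal5 value of each group, and the Eomes-negative array of sort 2 lay above the Eomes-positive array of sort 3. The St3gal5 difference was 1.42 (SE 0.54, limma adjusted p = 0.360, and 0.0692 with sort as a block), and positive in all 3 sorts. B4galnt1, which makes GM2 and GD2, was at 3.66, 3.46 and 4.02 on the Eomes-positive arrays, against 3.60, 3.25 and 4.00 on the Eomes-negative arrays. Its arrays followed the sort and not the group, with a difference of 0.10 (limma adjusted p = 0.980, 95% interval -0.53 to 0.73). B3gnt5, which leads lactosylceramide into the lacto series instead, was at 0.27, -0.40 and 0.19 on the Eomes-positive arrays, against 0.45, -0.11 and 0.30 on the Eomes-negative arrays. In each sort the Eomes-positive B3gnt5 value was the lower one, and the difference was -0.19 (limma adjusted p = 0.944). Ugcg, the glucosylceramide synthase upstream of B4galt5 and not itself one of the 81 genes, differed by 0.30 (limma adjusted p = 0.630). B4galt6, the other lactosylceramide synthase, was measured only on the 2 arrays of sort 2.

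**Figure D2:**
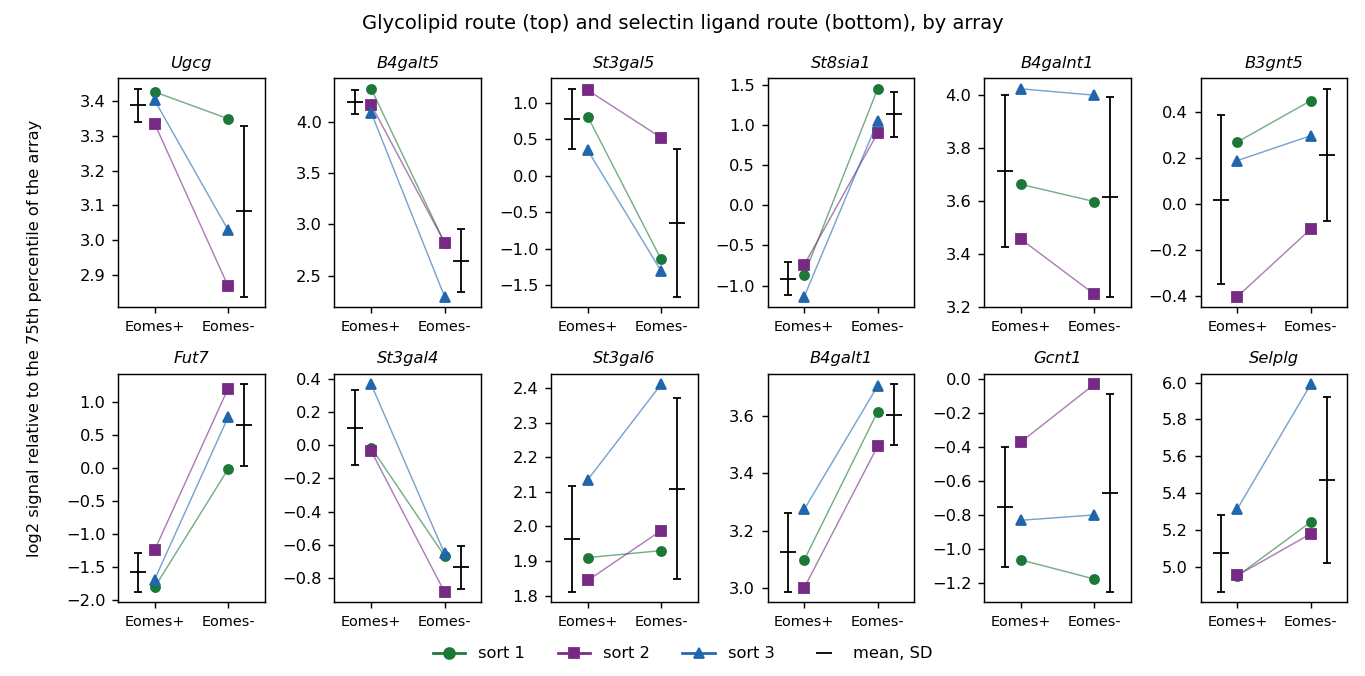
Log2 signal minus that of the array's 75th percentile (vertical axis, a scale per panel) in Eomes-positive and Eomes-negative cells, with lines joining the arrays of 1 sort and bars for mean and SD (n = 3), for genes of glycolipid synthesis (top) and of selectin ligand synthesis (bottom). B4galt5 and St8sia1 separated the groups in opposite directions, Fut7 was lower and B4galnt1 followed the sort.

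Fut7, the α1,3-fucosyltransferase that completes sialyl Lewis X on the ligands of P- and E-selectin, was lower in Eomes-positive cells. Fut7 was at -1.80, -1.24 and -1.69 on the Eomes-positive arrays, against -0.02, 1.20 and 0.77 on the Eomes-negative arrays. Every Eomes-positive array was below every Eomes-negative one, and sort 2 held the highest value of each group. The means were -1.58 ± 0.30 in Eomes-positive and 0.65 ± 0.62 in Eomes-negative cells (SD, n = 3 each), 4.68-fold lower (log2 -2.23, SE 0.35, limma adjusted p = 0.0364). A dimmer Fut7 probe gave -2.18. With no filter on dim probes the Fut7 call ended (limma adjusted p = 0.0746). Within slides 1 and 3 the differences were -2.39 and -2.45, and with slide as a block the difference was -2.42 without passing the test (limma adjusted p = 0.0881).

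Of the enzymes that prepare the chain for Fut7, none of St3gal4, St3gal6, B4galt1 and Gcnt1 passed the test with group as the only term. St3gal4, which with St3gal6 adds the α2,3-linked sialic acid of leukocyte selectin ligands, was at -0.01, -0.04 and 0.37 on the Eomes-positive arrays, against -0.67, -0.88 and -0.65 on the Eomes-negative arrays. The St3gal4 arrays did not overlap, with Eomes-positive higher by 0.84 (SE 0.17, limma adjusted p = 0.0833). With sort as a block St3gal4 passed (limma adjusted p = 0.0308), as it did with slide as a random block (0.85, limma adjusted p = 0.0244), opposite in direction to Fut7. St3gal6 was at 1.91, 1.84 and 2.13 on the Eomes-positive arrays, against 1.93, 1.99 and 2.41 on the Eomes-negative arrays. The St3gal6 groups overlapped, and the difference was -0.15 (limma adjusted p = 0.938, 95% interval -0.61 to 0.32).

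B4galt1, which supplies most of the galactose of N-acetyllactosamine chains, was at 3.1, 3.0 and 3.27 on the Eomes-positive arrays, against 3.61, 3.49 and 3.70 on the Eomes-negative arrays. Here the groups did not overlap, yet the difference of -0.48 (SE 0.15) did not pass (limma adjusted p = 0.229, and 0.0561 with sort as a block). Gcnt1, which makes the core 2 branch that carries sialyl Lewis X on O-glycans, was at -1.06, -0.37 and -0.83 on the Eomes-positive arrays, against -1.18, -0.03 and -0.80 on the Eomes-negative arrays. Sort 2 was highest in both groups for Gcnt1, and the difference was -0.09 (limma adjusted p = 0.990, 95% interval -0.95 to 0.77). Its 2 dimmer probes gave -0.86 and -0.44.

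Fut4, the other α1,3-fucosyltransferase of leukocytes, was at -5.05, -1.69 and -3.06 on the Eomes-positive arrays, against -4.52, -1.50 and -4.36 on the Eomes-negative arrays. Both sort 2 arrays stood above the other 4, Fut4 was measured on 5 arrays, and the difference was 0.20 with a 95% interval of -2.65 to 3.05 (limma adjusted p = 0.996). Outside the 81 genes, Selplg, which encodes the P-selectin ligand PSGL-1, differed by -0.40 (limma adjusted p = 0.739), and C1galt1, the core 1 synthase on which Gcnt1 acts, by 0.59 (limma adjusted p = 0.446).

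B4galnt4 adds N-acetylgalactosamine to N-acetylglucosamine and so makes LacdiNAc ends on glycoproteins. It was at -7.43, -6.85 and -6.16 on the Eomes-positive arrays, against -3.36, -2.03 and -1.94 on the Eomes-negative arrays. It was measured on all 3 Eomes-negative arrays and on no Eomes-positive array, where it was not well above background. It met the 3-array minimum through the group where it is high. The difference passed with that filter (limma adjusted p = 0.0144) and with no filter on dim probes (limma adjusted p = 0.0242). With each Eomes-positive value replaced by the array's lowest well-above-background signal, unless the probe's own signal was higher, the transcript was 12.8-fold lower. That is not a firm minimum, because brighter signals of other probes could fall short of well above background. The dimmer Fut7 probe, at -5.19, -4.22 and -4.29 on the Eomes-positive arrays, was measured on 1 of them. The measured means were -6.81 ± 0.64 in Eomes-positive and -2.44 ± 0.80 in Eomes-negative cells (SD, n = 3 each), -4.74 apart inside slide 1 and -4.22 inside slide 3. Slide as a block gave -4.52 (limma adjusted p = 0.0330). With normexp background correction, the difference was -1.85 and the call ended (limma adjusted p = 0.172). B4galnt3, the related LacdiNAc enzyme, and B4galnt2 were measured on no array.

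**Figure D3:**
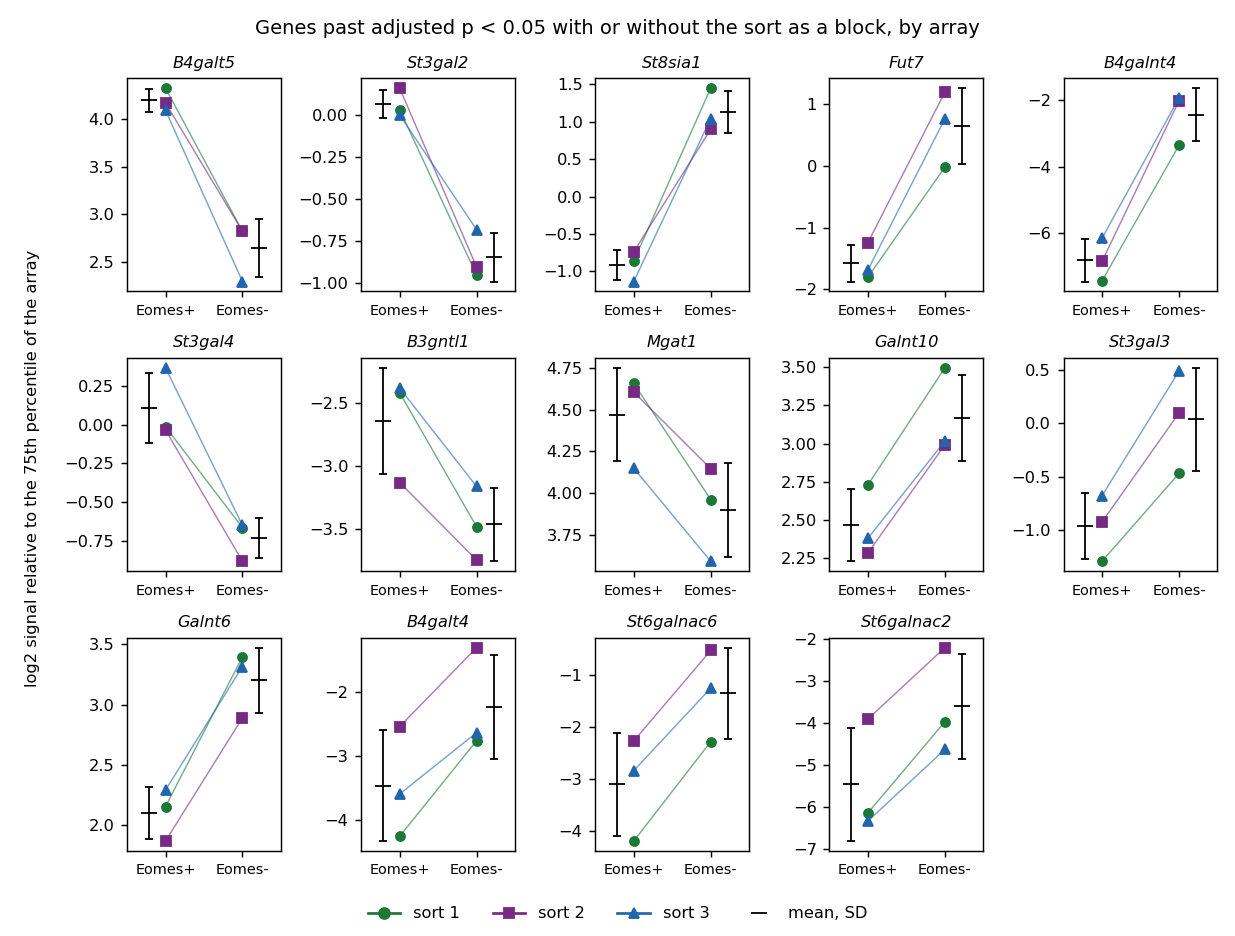
Log2 signal minus that of the array's 75th percentile (vertical axis, a scale per panel) in Eomes-positive and Eomes-negative cells for the 14 genes past the adjusted p threshold in the fit with or without the block for sort. Lines join the arrays of 1 sort and bars give mean and SD (n = 3); the first 5 panels are the genes that also passed without the block, and St6galnac2, St6galnac6 and B4galt4 show sort 2 above the other sorts within each group.

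Leaving out arrays, in fits with group as the only term, kept the direction of all 5 calls but ended most of them. Without any 1 sort, none of the 5 passed: limma adjusted p-values were 0.103 to 0.164 for St8sia1, 0.0865 to 0.200 for B4galnt4, 0.0690 to 0.262 for B4galt5, 0.153 to 0.266 for Fut7 and 0.112 to 0.434 for St3gal2. Without sort 1 or without sort 2, 0 of the 16361 genes passed (limma), while 1351 and 1265 stood at an unadjusted p under 0.05. When single arrays were left out, St8sia1 lost its call without the Eomes-positive array of sort 1 (limma adjusted p = 0.0553) and passed in the other 5 fits. B4galnt4 passed only without the Eomes-negative array of sort 1 (0.0214) or the Eomes-positive array of sort 3 (0.0341), B4galt5 only without the Eomes-negative array of sort 3 (0.0422), Fut7 only without the Eomes-negative array of sort 1 (0.0326), and St3gal2 in no such fit. Over these 9 fits the differences were -2.24 to -1.88 for St8sia1, -4.83 to -4.06 for B4galnt4, 1.37 to 1.65 for B4galt5, -2.56 to -1.95 for Fut7 and 0.84 to 1.03 for St3gal2.

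St6gal1, which adds α2,6-linked sialic acid to N-acetyllactosamine ends and so makes ligands of CD22, was at 0.68, 0.94 and 1.26 on the Eomes-positive arrays, against 1.97, 1.47 and 2.18 on the Eomes-negative arrays. The groups did not overlap, with Eomes-positive lower. The difference of -0.91 (SE 0.25) did not pass (limma adjusted p = 0.184, and 0.0607 with sort as a block), and its dimmer probe gave -1.44. It passed with the mean of both probes, at -1.18 (limma adjusted p = 0.0472), and with slide as a random block, at -0.97 (limma adjusted p = 0.0457). St6gal1 is also expressed by B cells, whose summed markers, given above, were lower in Eomes-positive cells too. That sum was carried by Cd79b, at 2.72 to 3.11 on the Eomes-positive arrays, against 3.76 to 4.04 on the Eomes-negative arrays, while none of the other 9 markers was above 0.65 on any array. Cd79b differed by -0.92 (limma adjusted p = 0.0597, and 0.0217 with sort as a block). Ms4a1 differed by 0.02, Cr2 by 0.03 and Fcer2a by 0.35, and no B cell marker besides Cd79b was called in either fit. Their part in the St6gal1 difference was not tested.

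Among the remaining α2,3-sialyltransferases, St3gal1, which caps core 1 O-glycans in T cells, was at 2.94, 2.63 and 2.90 on the Eomes-positive arrays, against 3.33, 2.87 and 3.19 on the Eomes-negative arrays. Eomes-positive was lower within every sort, though the groups overlapped, and the difference was -0.31 (limma adjusted p = 0.675). Its second probe gave -0.33. St3gal3, which acts on N-acetyllactosamine chains, was at -1.30, -0.93 and -0.68 on the Eomes-positive arrays, against -0.47, 0.10 and 0.49 on the Eomes-negative arrays. The groups did not overlap, and the difference of -1.0 (SE 0.30) did not pass with group as the only term (limma adjusted p = 0.221). It passed with sort as a block (0.0208) and with slide as a random block (-1.09, 0.0486). All 6 St3gal genes of the array were thus measured on all 6 arrays. Of them 1 was called higher and 0 lower, against 1.20% and 1.56% of all genes tested. With the block 2 were higher and 1 lower, against 3.67% and 4.33% of all genes tested.

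The St6galnac enzymes add α2,6-linked sialic acid to O-glycans and gangliosides, and 4 of the 6 genes were tested. St6galnac6, known from ganglioside synthesis, was at -4.19, -2.26 and -2.83 on the Eomes-positive arrays, against -2.28, -0.52 and -1.25 on the Eomes-negative arrays. The spread between sorts exceeded the step between groups, so that the groups overlapped. The St6galnac6 difference of -1.75 passed only with sort as a block (limma adjusted p = 0.344, and 0.00778 with the block). Its other probe, at another place of the gene, pointed the other way, at 0.30, so the direction for this gene is uncertain. St6galnac2 was at -6.14, -3.91 and -6.34 on the Eomes-positive arrays, against -3.98, -2.21 and -4.63 on the Eomes-negative arrays. It was measured on 1 Eomes-positive and 2 Eomes-negative arrays, sort 2 was highest in both groups, and the difference of -1.86 passed only with the block (limma adjusted p = 0.534, and 0.0101). St6galnac1, which makes sialyl-Tn, differed by 0.99 (limma adjusted p = 0.344), while its dimmer probe gave -0.39. St6galnac4 differed by -0.15 (limma adjusted p = 0.973), and its other probe gave 0.19.

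In the St8sia family, St8sia4 and St8sia6 were the other tested genes. St8sia4, a polysialyltransferase, was at 4.11, 3.89 and 3.68 on the Eomes-positive arrays, against 3.65, 3.29 and 3.22 on the Eomes-negative arrays. The Eomes-positive arrays were the higher ones without overlap, by 0.51 (SE 0.19, limma adjusted p = 0.360, and 0.0546 with sort as a block). St8sia6, which places α2,8-linked sialic acid on O-glycans, differed by 0.91, positive in all 3 sorts with overlapping groups (limma adjusted p = 0.677). Of the family's 6 genes, St8sia2, St8sia3 and St8sia5 were measured on no array.

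Of 18 Galnt genes, 10 were tested, and none was called with group as the only term, against 2.77% of all genes tested. With sort as a block 2 passed, both lower, in a fit that called 4.33% of all genes tested lower. Galnt6 was at 2.15, 1.87 and 2.29 on the Eomes-positive arrays, against 3.40, 2.89 and 3.32 on the Eomes-negative arrays. The 2 sets of arrays were well apart, with Eomes-positive lower and a difference of -1.10 (SE 0.21, limma adjusted p = 0.0618, and 0.0146 with the block). Galnt6 also passed with slide as a random block (-1.06, limma adjusted p = 0.0275) and with an intensity trend in the variance model (limma adjusted p = 0.0357). A second Galnt6 probe, measured on all arrays, gave -1.39. Galnt10, which prefers peptides that already carry N-acetylgalactosamine, was at 2.73, 2.28 and 2.38 on the Eomes-positive arrays, against 3.50, 2.99 and 3.02 on the Eomes-negative arrays. Again without overlap, the Galnt10 difference was -0.70 (SE 0.21, limma adjusted p = 0.228, and 0.0272 with the block). Galnt3, known for glycosylating FGF23, was at -2.69, -1.96 and -2.86 on the Eomes-positive arrays, against -2.15, -0.58 and -4.51 on the Eomes-negative arrays. The group difference for Galnt3 was -0.09 with a 95% interval of -2.51 to 2.34 (limma adjusted p = 0.997). The other 7 ranged from -0.46 for Galnt12 to 1.09 for Galnt9, with Galnt2 and Galnt4 higher and Galnt12 lower on all 3 Eomes-positive arrays without passing the test.

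N-glycan branching genes showed small differences. Mgat1, the enzyme that opens the path to complex N-glycans, was at 4.66, 4.61 and 4.15 on the Eomes-positive arrays, against 3.96, 4.15 and 3.59 on the Eomes-negative arrays. The groups did not overlap, though the lowest Eomes-positive value and the highest Eomes-negative value both round to 4.15. The Mgat1 difference of 0.57 (SE 0.22) passed only with sort as a block (limma adjusted p = 0.387, and 0.0493 with the block). Mgat2, Mgat4a, Mgat4b and Mgat5b, which add further branches, ranged from -0.54 to 0.38 and none passed in either fit. Mgat5, whose β1,6 branch carries the chains that galectins bind on T cells, and Mgat3, which adds the bisecting residue, were not well above background on any array. Fut8, which adds the core fucose of N-glycans, was at 0.79, 0.64 and 0.49 on the Eomes-positive arrays, against 0.46, 0.16 and 0.32 on the Eomes-negative arrays. Its Eomes-positive arrays were just above the others, and the difference of 0.33 did not pass (SE 0.16, limma adjusted p = 0.538). Fut11 differed by 0.16 (limma adjusted p = 0.972).

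Among the chain-extending enzymes, B3gnt2, the main poly-N-acetyllactosamine synthase, was at 2.48, 2.38 and 2.67 on the Eomes-positive arrays, against 2.21, 1.81 and 2.06 on the Eomes-negative arrays. The B3gnt2 arrays did not overlap, at a difference of 0.48 (SE 0.17, limma adjusted p = 0.312, and 0.0901 with sort as a block). B3gntl1, a family member named by sequence, was at -2.42, -3.13 and -2.39 on the Eomes-positive arrays, against -3.48, -3.75 and -3.16 on the Eomes-negative arrays. B3gntl1 differed by 0.82 and passed only with the block (limma adjusted p = 0.282, and 0.0392). B3gnt9 was lower on all 3 Eomes-positive arrays without passing (-0.67, limma adjusted p = 0.151), and B3gnt3 differed by -0.12 with overlapping groups. B4galt4, which favours sulfated N-acetylglucosamine, was at -4.26, -2.54 and -3.60 on the Eomes-positive arrays, against -2.76, -1.30 and -2.63 on the Eomes-negative arrays. In B4galt4 the sorts were further apart than the groups, which overlapped, and the difference of -1.23 passed only with the block (limma adjusted p = 0.519, and 0.0212). Its dimmer probe gave -1.33. B4galt3 (-0.03), B4galt7 (-0.19), which builds the proteoglycan linker, and B4gat1 (0.00), which acts on α-dystroglycan, differed by less than their SEs of 0.15 to 0.22 on the log2 scale.

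Gcnt2, the I-branching enzyme, had the most negative uncalled difference of the 48 genes. Gcnt2 was at -7.37, -2.75 and -5.69 on the Eomes-positive arrays, against -3.01, -1.29 and -2.34 on the Eomes-negative arrays. It was measured on 1 Eomes-positive array, that of sort 2, and on all 3 Eomes-negative arrays, and the Eomes-positive array of sort 2 lay within the Eomes-negative range. The difference was -3.06 with a 95% interval of -6.02 to -0.10 (limma adjusted p = 0.384, and 0.0649 with sort as a block).

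Some genes followed the sort. Both sort 2 arrays were above the other 4 for 7 of the 48 genes, or 14.6% (B4galt4, B4gat1, Fut4, Galnt3, Galnt9, Gcnt1 and St6galnac2), against 9.38% of all genes tested, and both sort 3 arrays were above the other 4 for 5 of the 48, or 10.4%, against 20.4% of all genes. Whether these shares differ from those of all genes was not tested. The summed level of 10 myeloid markers was 8.21 on the Eomes-positive and 8.25 on the Eomes-negative array of sort 2, against 4.06 to 5.36 on the other 4 arrays. S100a8, a neutrophil and monocyte gene, was at 5.89 on the Eomes-positive and 5.64 on the Eomes-negative array of sort 2, against -2.29 to -1.53 on the other 4. Single myeloid markers differed in direction. Csf1r (-2.69 and -1.40), Adgre1 (-3.31 and -1.57), Cd14 (-3.01 and -1.57) and Mpeg1 (-1.395 and -0.65) were lower in Eomes-positive cells in sorts 1 and 2. In sort 3 they were higher, by 0.83, 1.035, 1.01 and 0.57. Cd68 and Clec7a had the same signs, while Lyz2 and S100a8 were higher in Eomes-positive cells in every sort. No myeloid marker was called in either fit. Erythroid markers summed to 5.66 on both arrays of sort 1, against 8.36 to 9.10 in the other sorts. The part of myeloid or erythroid RNA in the glycosyltransferase genes was not tested. For the called genes, the sort 2 differences had the same sign as the others, at 1.34 for B4galt5, 1.07 for St3gal2, -1.64 for St8sia1, -2.44 for Fut7 and -4.82 for B4galnt4.

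**Figure D4:**
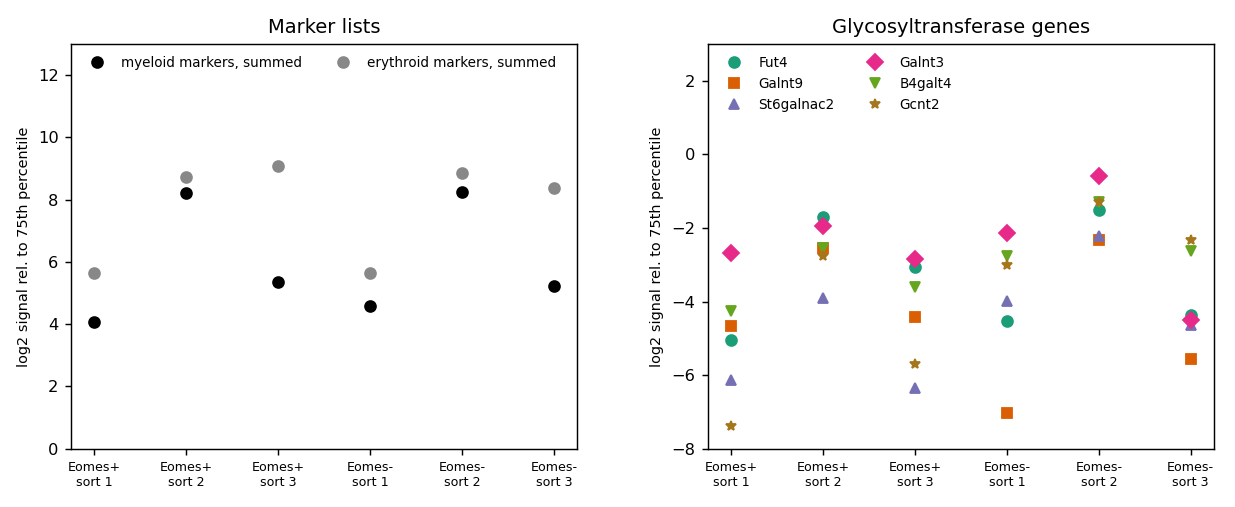
Summed log2 level of myeloid and erythroid markers (left) and log2 level of 6 glycosyltransferase genes (right), each minus the array's 75th percentile (vertical axes), on the 6 arrays. Myeloid sums of 8.21 and 8.25 on the sort 2 arrays lie above the other 4, as do Fut4, Galnt9, Galnt3, B4galt4 and St6galnac2; Gcnt2 is highest in sort 2 within each group.

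Genes that supply or modify the same glycans were counted from 8 lists with 84 genes on the array, 64 of them tested. None was called higher and 2 were called lower, against the 1.20% and 1.56% of all genes, with a median difference of -0.05 over the 64. Slc35d2, a Golgi transporter of nucleotide sugars, was at -2.21, -2.33 and -2.20 on the Eomes-positive arrays, against -1.16, -0.88 and -1.27 on the Eomes-negative arrays. Man2a2, an α-mannosidase that trims N-glycans after Mgat1 has acted, was at -1.62, -2.02 and -2.10 on the Eomes-positive arrays, against -0.84, -0.90 and -0.91 on the Eomes-negative arrays. Both were lower without overlap, with differences of -1.14 for Slc35d2 (SE 0.16, limma adjusted p = 0.0249) and -1.03 for Man2a2 (SE 0.17, limma adjusted p = 0.0432). With sort as a block 1 gene of the 64 passed as higher and 6 as lower, in a fit that called 3.67% and 4.33% of all genes tested. The higher one was Chst3, a chondroitin 6-sulfotransferase, and among the lower ones were Slc35d2, Man2a2, Chst10, B3galt5 and Npl. Chst3 was at -0.86, -0.78 and -1.43 on the Eomes-positive arrays, against -2.71, -2.62 and -3.84 on the Eomes-negative arrays, a difference of 2.03 (SE 0.39, limma adjusted p = 0.0641, and 0.0111 with the block). In lists without a call, the genes named here were Neu1, a lysosomal sialidase (0.06), Slc35c1, the GDP-fucose transporter (-0.13), Ugcg (0.30), B3gat3 (0.03) and Mfng, a Fringe enzyme of Notch (-0.35), none past an adjusted p of 0.05 in limma.

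The number of genes tested varied by family. All 6 St3gal genes, 5 of 7 B4galt genes, 6 of 10 B3gnt genes, 5 of 8 Mgat genes, 4 of 9 Fut genes, 3 of 6 St8sia genes and 2 of 5 Gcnt genes were tested. Among those measured on no array were Fut1 and Fut2, which make H antigens, Fut9, which makes Lewis X, Gcnt3 and Gcnt4, the other core 2 enzymes, St6gal2, St6galnac3 and St6galnac5, B3gnt7, B4galt2, Galnt5 and Galnt13. A signal not well above background sets only an upper limit to the level of these transcripts.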

How the data were processed

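RNA of 6 sorted γδ T cell samples was amplified once, labelled with 1 fluorescent dye and hybridised to one-colour Agilent arrays, per the labels. Intensity values are on a linear scale and were made by the authors with Agilent Feature Extraction 10.7.3.1, per the submitters' processing notes; per the file headers they are background-subtracted and not normalized between arrays. The scanner files also hold other columns that were used, yes-or-no flags (well above background, saturated, outlier), deposited by the authors from the same software. The authors' own deposited values, a single intensity per probe and array with 75th percentiles of 1497 to 1506, served as an alternative.

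Each array had 162570 spots, 4854 of them controls. The 4 spots of each of 39429 probes were averaged as log2 intensity without outlier spots, and the array's 75th percentile was subtracted. A RefSeq accession named 27515 probes (GRCm38.p6 annotation). Genes measured on at least 3 of 6 arrays were fitted together in limma 3.58.1 (R 4.3.3, statmod 1.5.0, data.table version 1.17.8) with group as the only term, and p-values were adjusted over all 16361 genes by the Benjamini-Hochberg method (threshold 0.05). The fit was also run on simulated arrays with independent noise. These lack the correlation within a sort, so that run does not bear on the calls made here. Deviations from the group means correlated at 0.808 to 0.818 for arrays of the same replicate number and -0.57 to -0.26 for others, and each number is 1 sort, so the sort served as a block where it changed a call. Slide and scan date coincided: slide 1 held both arrays of sort 1 and the Eomes-negative array of sort 2, slide 2 the Eomes-positive array of sort 2, and slide 3 both arrays of sort 3. An exact permutation test of 3 against 3 arrays cannot reach the threshold and was not used. The number of arrays limits the precision. Plots used matplotlib 3.10.9 and pandas 2.3.3 under Python 3.11.15.

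Genes named with every array's value are those called with or without the block, and St3gal1, St3gal2, St3gal4, St3gal6, St6gal1, St8sia4, Fut4, Fut7, Fut8, Gcnt1, Gcnt2, B4galt1, B4galnt1, B3gnt2, B3gnt5, Galnt3 and Galnt10 whatever their result (Mgat3 and Mgat5 were measured on no array). St3gal5 was added after its values were seen. From the lists of related genes, called genes were named and otherwise the gene of highest mean signal; other genes of a route are given beside it. A few genes that these rules would name are not reported here. The glycosyltransferase genes, the lists and the markers were chosen with earlier results of these data known. Of 10 T cell marker names 4 were on the array under those names, and of 7 αβ T cell names 4.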

Additional observations from a re-analysis of the deposited data

How the results depend on the processing

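The 5 calls kept their direction under the 11 other settings and in the 9 fits with fewer arrays, each lacking 1 sort or 1 array. The call was kept in 16 of 20 such settings for St8sia1, 11 of 19 for B4galnt4, 10 of 20 for B4galt5 and for Fut7, and 6 of 20 for St3gal2. Counts that moved by over 1.5 times are given here for glycosyltransferase genes, for genes of the related lists and for all genes tested; the cause was not tested except where stated. With normexp background correction, and likewise with median scaling, 1 glycosyltransferase gene was higher, and the lists had 1 higher and 0 lower. With slide as a block 1 glycosyltransferase gene was higher, and the lists had 1 higher and 1 lower. With no filter on dim probes 0 glycosyltransferase genes were higher, 0 list genes lower, and 92 genes in all were higher and 153 lower, with 30194 genes tested. With the mean of all probes 0 glycosyltransferase genes were higher and 1 list gene lower; with quantile normalization and with an intensity trend 1 list gene was lower. With genes measured on all 6 arrays, 165 of all 13747 genes were lower. With the sort as a replicate block the pairs were 5 higher and 9 lower among glycosyltransferase genes, 1 and 6 in the lists, and 601 and 708 in all; among the marker genes Cd79b and Foxp3 became called as lower and Klra4 as higher, and no other marker changed its call. With slide as a random block 6 glycosyltransferase genes were lower, the lists had 2 higher and 4 lower, and all genes 444 higher and 513 lower. The 9 fits with fewer arrays gave 0 to 1 higher and 0 to 3 lower glycosyltransferase genes, 0 to 0 higher and 0 to 1 lower list genes, and 0 to 101 higher and 0 to 179 lower genes in all. Without sort 1 or 2, limma called 0 genes, with 1351 and 1265 at an unadjusted p under 0.05.

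Uncalled differences near 0 changed sign. Fut4 (0.20) was -0.028 with normexp, -0.61 with slide as a block and -0.22 with slide as a random block; Galnt3 and Gcnt1 (both -0.09) were 0.012 with median scaling; B3gnt5 (-0.19) was 0.011 with slide as a block. In the fits with fewer arrays the ranges were -0.59 to 1.17 for Fut4, -1.13 to 0.83 for Galnt3, -0.34 to 0.23 for Gcnt1, -0.35 to 0.017 for B3gnt5, -0.084 to 0.29 for B4galnt1 and -0.24 to 0.0037 for St3gal6. Median scaling moved the median difference to 0.09 over all genes and to 0.01 over the 48. Dim probes limit what can be said: B4galnt4, Gcnt2, St6galnac2, Galnt9, Galnt3 and Fut4 were below the background limit on at least 1 array.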
